A study of Arabidopsis thaliana with 20 samples.

Results

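Captured NAD RNA was compared with total RNA, gene by gene, in unopened flower buds of Arabidopsis thaliana labelled dxo1. The 4 libraries used, of 20 in the series, are 2 of NAD capture and 2 of total RNA, chosen by those labels and by no measured value. NAD capture enriches RNA that carries NAD at its start, and total RNA is the input level it is set against. Buds of both groups came from plants about 4 weeks old that had 16 h of light and 8 h of dark a day. RNA from both groups was read as strand-specific single reads of 50 nt. All 4 libraries are labelled dxo1, but that label is in doubt for 1 of them, which held far more DXO1 reads than the others. The labels do not name the allele. They do not state whether the 2 libraries of one kind stem from different plants, so each p-value rests on the spread between these libraries, which may be technical. The test takes most of that spread from all genes together: a gene's own libraries leave 2 degrees of freedom, beside 12.7 drawn from the other genes. No mock capture was analysed here, so RNA that comes through the capture without a NAD cap is not subtracted from any value.

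Most messenger RNAs begin with a methylguanosine cap, which protects the transcript and recruits the translation machinery. A share of transcripts instead starts with the metabolite NAD, which RNA polymerases can build in as the first nucleotide. DXO1 is the Arabidopsis member of the DXO/Rai1 family of enzymes, which remove the whole NAD from such RNAs, and it has also been described as a partner in the methylation of the guanosine cap. In plants, NAD caps have been described mainly on nuclear and mitochondrial transcripts. A gene called higher in capture has a ratio of captured to total RNA above that of the bulk of genes, to which the libraries are scaled. This ratio is relative to the other genes and is not the fraction of that gene's RNA that carries NAD. A gene called lower can thus still hold an equal or larger plain share of the captured library.

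DXO1 (AT4G17620) had 19.0 and 18.7 CPM in the captured libraries, against 644 and 11.9 CPM in total RNA, where CPM (counts per 1e6) are relative to a library's assigned counts scaled by edgeR's TMM factor. The library labelled dxo1 total RNA replicate 1 thus held far more DXO1 reads (2094 counts) than the other 3 libraries (76 and 39 counts in capture, 77 counts in total RNA replicate 2), and the groups overlap. Every SE given here is the absolute log2 fold change divided by the square root of the test statistic F. It is worked back from the test and is not a separate estimate of error. The log2 fold change of capture over total RNA was -4.10 (SE 1.05, adjusted p = 0.00453, by the quasi-likelihood F test of edgeR, adjusted after Benjamini and Hochberg). Without the library labelled total RNA replicate 1 it was 0.64 (adjusted p = 0.0708). The genotype label of that library is thus in doubt, and the counts of most gene groups are therefore also given without it. Why its DXO1 level differs was not tested.

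Between 1644104 and 3178702 reads per captured library, and between 4100829 and 8309456 per total RNA library, were assigned to genes. Replicates resembled each other more than the 2 kinds of RNA did: Pearson's r of log2 CPM across genes was 0.959 between the captured libraries and 0.971 between the total RNA libraries, against 0.771 to 0.794 across the kinds. The replicates of each kind still differed by more than sampling noise, with a chi-square per degree of freedom of 3.98 for capture and 5.48 for total RNA. Transcripts of flower buds were present in both kinds. PISTILLATA (PI), which specifies petals and stamens, had 368 and 376 CPM in capture and 166 and 180 CPM in total RNA. AGAMOUS (AG), which specifies stamens and carpels, had 89.0 and 97.8 CPM in capture and 48.6 and 52.2 CPM in total RNA. Of 20 seed and root marker genes, 4 passed the filter on low counts and 13 had no count in total RNA.

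Of 28775 genes, 17494 passed the filter on low counts, and 51.4% of these differed between capture and total RNA at an adjusted p under 0.05. Capture was higher for 4490 genes (25.7%) and lower for 4494 genes (25.7%), and over all genes tested the log2 fold change had a median of 0.02. Counts of calls in any gene group below are to be read beside these shares. Among the genes called, 3136 were at least 2-fold and 338 at least 8-fold higher in capture, against 2711 at least 2-fold and 48 at least 8-fold lower. Both captured libraries stood above both total RNA libraries for 38.2% of the genes tested and below them for 37.9%. The balance of higher and lower calls was set by the scaling: with library totals alone 9045 genes were higher and 1642 lower, and the median log2 fold change moved to 0.71, so each change below is relative to the bulk of genes. With upper-quartile factors 5279 genes were higher and 3752 lower. Leaving out the library labelled total RNA replicate 1 gave 4201 higher and 4505 lower genes.

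The direction of the change varied with the level of the gene. When genes were ranked by mean level and cut into 5 equal bins, 29.8% of the lowest bin was higher in capture and 8.57% lower, with a median log2 fold change of 0.47. In the highest bin, 23.7% were higher and 44.2% lower, with a median of -0.33. Of the genes tested, 2432 passed the filter through the captured libraries alone, and such genes could hardly be lower in capture. Where a group of genes holds many of them, its count of higher calls is a description only.

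**Figure D1:**
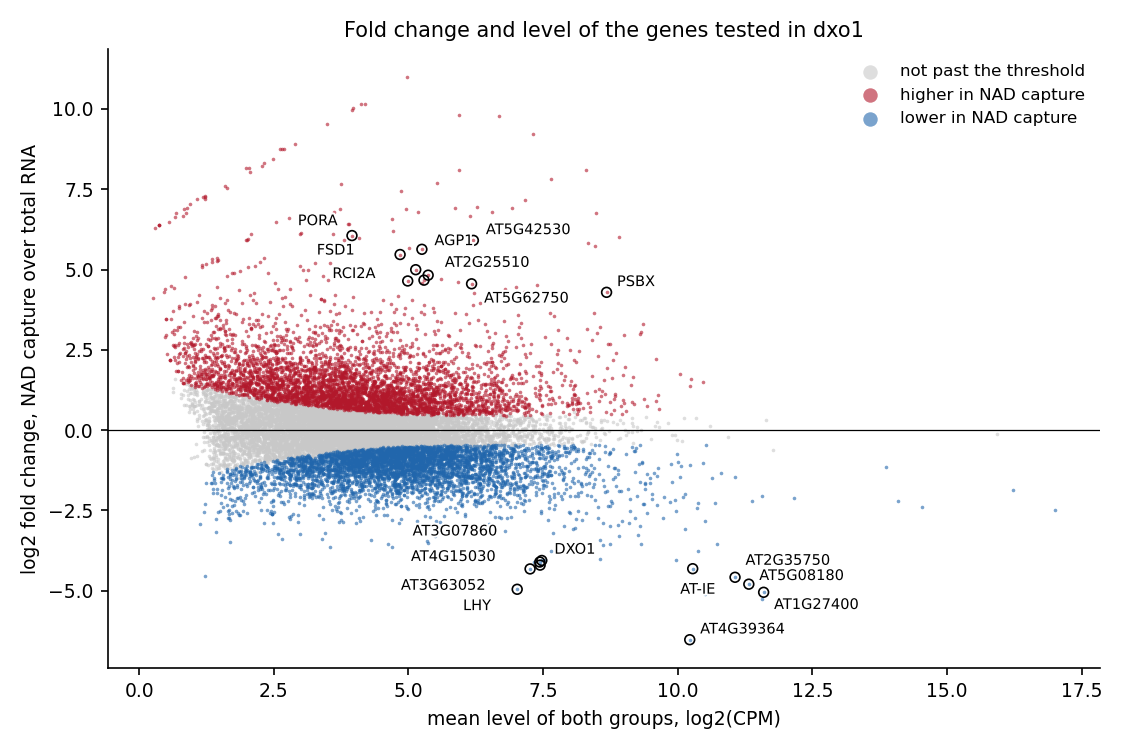
Each point is 1 of 17494 genes tested. The horizontal axis is its mean level in both groups as log2 CPM and the vertical axis its log2 fold change of NAD capture over total RNA, in red where higher in capture, blue where lower and grey where not past the threshold. Circled genes are described in the text. Higher calls make up 29.8% of the lowest of 5 equal bins of level, and lower calls 44.2% of the highest. Fitted values of genes with no count in total RNA depend on the prior count of the fit.

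Of the 8 largest rises among protein-coding genes with a mean level above the median, 7 passed the filter through capture alone, so that a rise was set by their admission, and all of the 8 largest falls passed through both kinds. The rises included a cell wall glycoprotein, an antioxidant enzyme and a small cold-induced protein. AGP1, an arabinogalactan protein anchored at the cell surface, had 72.0 and 76.7 CPM in capture against 2.46 and 0.93 CPM in total RNA (log2 fold change 5.63 with SE 0.31, adjusted p = 1.565e-08). FSD1, an iron superoxide dismutase, had 62.2 and 49.9 CPM in capture against 1.85 and 0.93 CPM in total RNA (log2 fold change 5.47 with SE 0.32). RCI2A, a small hydrophobic membrane protein induced by cold, had 70.5 and 65.2 CPM in capture against 3.39 and 1.40 CPM in total RNA (log2 fold change 4.99 with SE 0.30), in a row that overlaps other annotated genes. That the groups do not overlap was a condition for choosing the 8 rises and is no separate result. The remaining 5 genes are given by identifier, and only AT5G62750 passed through both kinds. AT5G42530 ranked first, with 144 and 146 CPM in capture against 2.77 and 2.17 CPM in total RNA (log2 fold change 5.91 with SE 0.26, adjusted p = 2.47e-09). AT2G25510 (4.82), AT5G03490 (4.67), AT3G26110 (4.64) and AT5G62750 (4.55, all log2 fold changes) followed.

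The largest falls were led by AT1G27400, with 208 and 155 CPM in capture against 6087 and 5934 CPM in total RNA (log2 fold change -5.05 with SE 0.23, adjusted p = 2.47e-09). LHY, a MYB transcription factor of the morning loop of the circadian clock, had 7.75 and 8.63 CPM in capture against 229 and 274 CPM in total RNA (log2 fold change -4.95 with SE 0.24). AT5G08180 and AT2G35750 fell as well, with log2 fold changes of -4.79 and -4.58. AT-IE, also named HISN2, an enzyme of histidine synthesis, had 141 and 95.9 CPM in capture against 2136 and 2596 CPM in total RNA (log2 fold change -4.31 with SE 0.24). The other 3 were AT3G63052 (-4.32), AT4G15030 (-4.20) and AT3G07860 (-4.06). As for the rises, only genes whose groups do not overlap could be chosen.

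**Figure D2:**
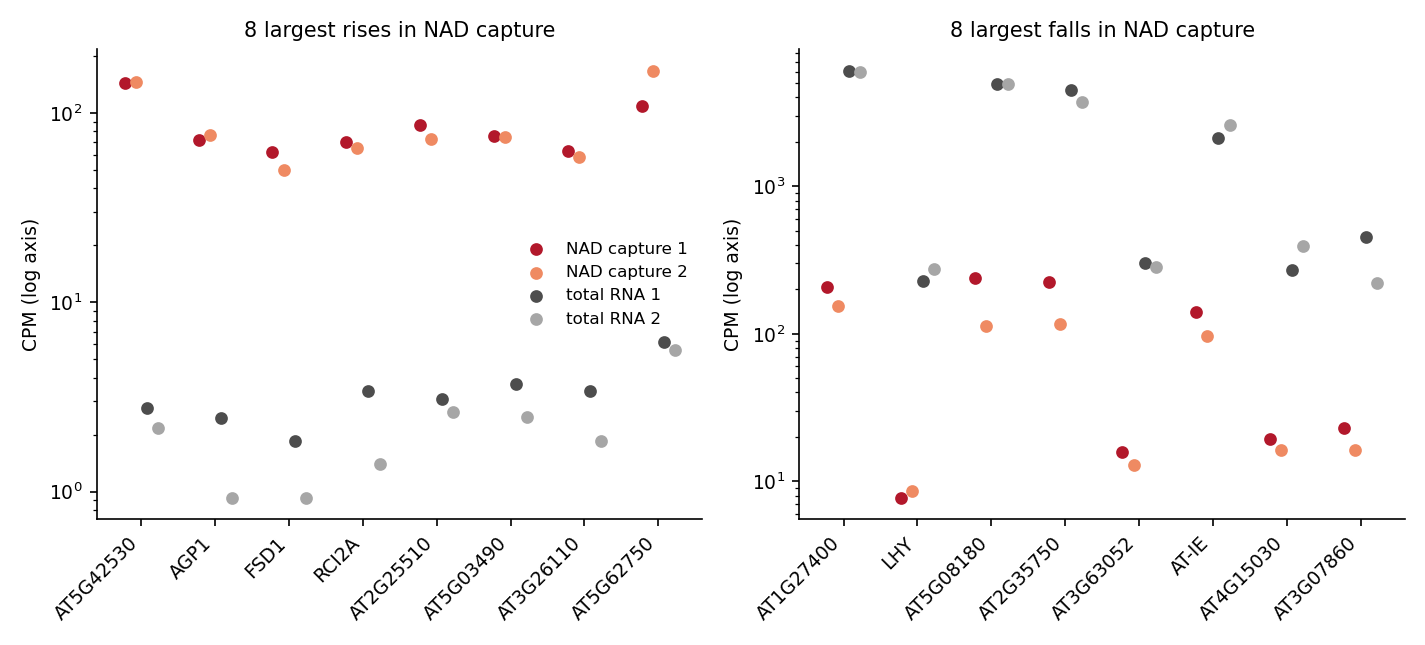
CPM (log axis) of the 8 protein-coding genes with the largest rises (left) and the 8 with the largest falls (right) among genes above the median level, with 1 point per library: NAD capture 1 and 2 in red and orange, total RNA 1 and 2 in dark and light grey. AGP1 lies at 72.0 and 76.7 CPM in capture and at 2.46 and 0.93 CPM in total RNA, and LHY at 7.75 and 8.63 CPM in capture and at 229 and 274 CPM in total RNA.

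Several of the falls lie in genes that share their place with small nucleolar RNAs (snoRNAs), short RNAs that guide the modification and cutting of ribosomal RNA and that in plants often sit inside other genes. Of the 8 largest falls, 5 overlap an annotated snoRNA (AT1G27400, AT5G08180, AT2G35750, AT-IE and AT3G07860), against 0 of the 8 largest rises. Of 52 tested protein-coding genes that overlap an annotated snoRNA, 11 were higher and 31 lower in capture, with a median log2 fold change of -1.18. Of the 17017 that overlap none, 4293 were higher and 4348 lower, with a median of 0.01. The 52 genes summed to 5093 and 4156 CPM in capture against 31130 and 30230 CPM in total RNA. Of the 29 protein-coding genes at least 8-fold lower in capture, 10 were among these 52. Of the 77 snoRNAs concerned, 9 have a row of their own in the count tables. Reads from a snoRNA without a row cannot be told apart from reads of the gene around it, and their part in these falls was not tested. LHY, AT3G63052 and AT4G15030 overlap no annotated snoRNA.

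Nuclear genes of the photosystems stood higher in capture. Of 22 genes for photosystem subunits, all tested, 18 were higher (81.8%) and 1 lower (4.55%), beside 25.7% each over all genes tested. Their median log2 fold change was 1.64, beside 0.02 over all genes tested. Their summed level was 9874 and 9547 CPM in capture against 3823 and 3641 CPM in total RNA. The counts were 17 higher and 1 lower without the library labelled total RNA replicate 1. In photosystem II, PSBX, a small membrane subunit, had 801 and 758 CPM in capture against 44.9 and 35.4 CPM in total RNA (log2 fold change 4.29 with SE 0.22, adjusted p = 6.266e-09). PSBW, another small subunit, which stabilises the supercomplex, had 635 and 653 CPM in capture against 63.1 and 40.6 CPM in total RNA (log2 fold change 3.65 with SE 0.23). PSBP-1, an extrinsic protein of the oxygen-evolving complex, had 884 and 765 CPM in capture against 212 and 214 CPM in total RNA (log2 fold change 1.96 with SE 0.19). None of these 3 had overlapping groups.

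In photosystem I, the rise was largest for the subunits at the docking side of the mobile antenna. PSAH-1 had 394 and 337 CPM in capture against 33.9 and 25.1 CPM in total RNA (log2 fold change 3.65 with SE 0.22). Its paralogue PSAH2 had 193 and 120 CPM in capture against 19.7 and 17.36 CPM in total RNA (log2 fold change 3.10 with SE 0.25). Subunit H, with L and O, forms that docking side. PSAL had 998 and 1230 CPM in capture against 148 and 132 CPM in total RNA (log2 fold change 2.99 with SE 0.20), and PSAO had 845 and 972 CPM against 120 and 110 CPM (log2 fold change 2.98 with SE 0.20). The single member that fell was PSAE-2, for a subunit at the ferredoxin side, with 59.2 and 57.1 CPM in capture against 140 and 148 CPM in total RNA (log2 fold change -1.31 with SE 0.19, adjusted p = 4.945e-05).

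The light-harvesting antenna, whose proteins bind chlorophyll and pass excitation to the photosystems, held genes that changed in both directions. Of 20 genes, all tested, 8 were higher (40%) and 4 lower (20%), beside 25.7% each over all genes tested, with a median of 0.18. With library totals alone, however, 15 were higher and 1 lower (median 0.87). The sums were 9360 and 9766 CPM in capture against 9894 and 9884 CPM in total RNA. With the library labelled total RNA replicate 1 left out, 7 were higher and 3 lower. LHB1B1, for a major antenna protein, had 50.2 and 87.3 CPM in capture against 12.6 and 17.5 CPM in total RNA (log2 fold change 2.12 with SE 0.27). LHCA5, a minor antenna protein of photosystem I, had 109 and 104 CPM in capture against 36.0 and 47.0 CPM in total RNA (log2 fold change 1.34 with SE 0.20). On the other side, LHCA1 had 745 and 784 CPM in capture against 1490 and 1761 CPM in total RNA (log2 fold change -1.09 with SE 0.18), and CAB2 had 181 and 214 CPM in capture against 505 and 459 CPM in total RNA (log2 fold change -1.29 with SE 0.19). CAB2 is 1 of several near-identical copies, so its value is uncertain.

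Of 16 genes for electron carriers, supercomplex factors and ATP synthase, 9 were higher and 3 lower (median 0.96), and these counts were the same without the library labelled total RNA replicate 1. PETE1, a plastocyanin, which carries electrons to photosystem I, had 88.0 and 59.9 CPM in capture against 18.5 and 22.6 CPM in total RNA (log2 fold change 1.85 with SE 0.22). The second plastocyanin gene, DRT112, was also higher, with 691 and 641 CPM in capture against 361 and 327 CPM in total RNA (log2 fold change 0.95 with SE 0.18). The ferredoxin FD1 (1.16), PGRL1A of cyclic electron flow (1.17) and CURT1C, which curves thylakoid membranes (1.39), were also higher.

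Of 20 enzymes of carbon fixation, 5 were higher (25%) and 6 lower (30%), shares near those over all genes tested (25.7% each), with a median of 0.06 (5 and 5 called without the library labelled total RNA replicate 1). With library totals alone 12 were higher and 4 lower (median 0.755). All 3 plastid aldolases were lower. FBA2 had 264 and 334 CPM in capture against 1423 and 1970 CPM in total RNA (log2 fold change -2.51 with SE 0.22, adjusted p = 6.797e-07), and FBA1 (-1.83) and FBA3 (-1.70) were lower too. RCA, the activase of Rubisco, had 1112 and 1171 CPM in capture against 3183 and 3153 CPM in total RNA (log2 fold change -1.47 with SE 0.18). Of 4 genes for the Rubisco small subunit, 3 were higher: RBCS2B had 670 and 550 CPM in capture against 111 and 137 CPM in total RNA (log2 fold change 2.29 with SE 0.20), and RBCS3B had a log2 fold change of 1.58 and RBCS1B one of 1.0. The small subunit genes are close copies, and reads that match several of them are not counted.

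Chlorophyll synthesis genes moved in both directions. The share called higher (28.6%) was near the 25.7% over all genes tested, while 42.9% were called lower, beside 25.7%. Of 21 genes, all tested, 6 were higher and 9 lower in capture, and the median was -0.38, but 0.31 with library totals alone, when 9 were higher and 4 lower. The counts were 5 higher and 10 lower without the library labelled total RNA replicate 1. HEMA1, for glutamyl-tRNA reductase at the entry of the pathway, had 111 and 110 CPM in capture against 271 and 313 CPM in total RNA (log2 fold change -1.40 with SE 0.19). GUN5, for a subunit of magnesium chelatase, had 180 and 213 CPM in capture against 1170 and 1184 CPM in total RNA (log2 fold change -2.58 with SE 0.19, adjusted p = 1.834e-07). CHLI1, another subunit of the same enzyme, was higher, with 142 and 134 CPM in capture against 57.2 and 70.4 CPM in total RNA (log2 fold change 1.11 with SE 0.19). The 3 light-dependent protochlorophyllide reductases also went separate ways. PORA passed the filter through capture alone, so that a rise was set by its admission. It had 25.8 and 35.0 CPM in capture against 0.92 and 0.155 CPM in total RNA (log2 fold change 6.06 with SE 0.47), the last 2 CPM values resting on 4 counts in all. PORB had 193 and 241 CPM in capture against 56.3 and 48.1 CPM in total RNA (log2 fold change 2.06 with SE 0.20), and PORC had 56.5 and 62.3 CPM in capture against 97.8 and 114 CPM in total RNA (log2 fold change -0.84 with SE 0.19). The call for PORC was lost with library totals alone.

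**Figure D3:**
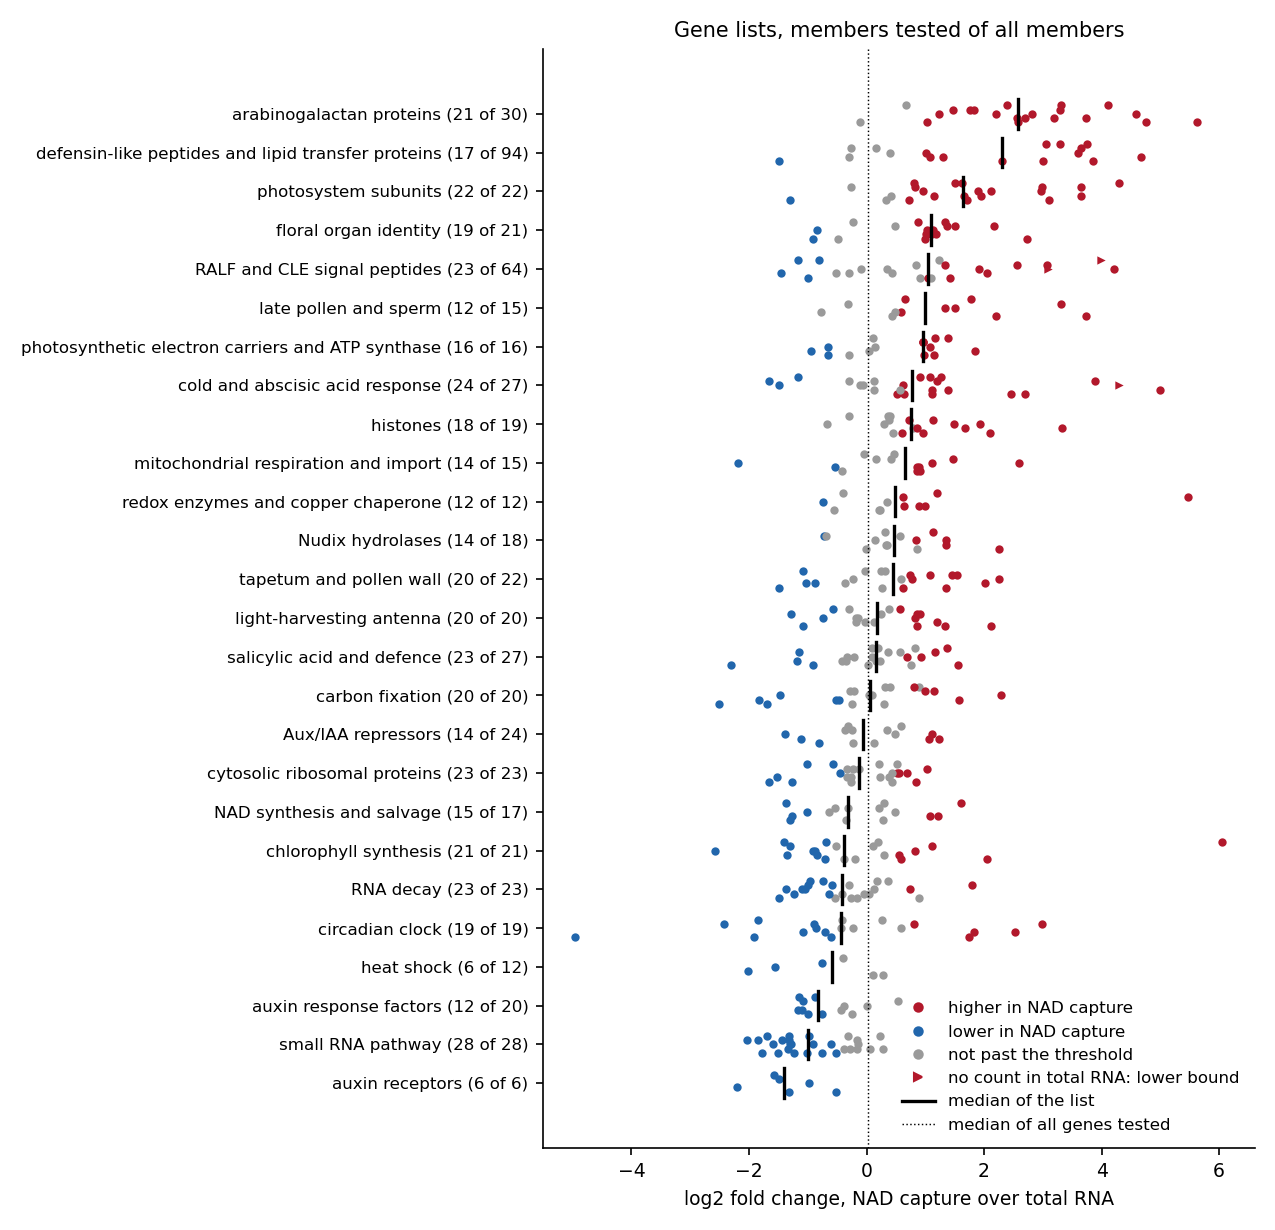
Log2 fold change of NAD capture over total RNA (horizontal axis) for the tested members of each gene list with at least 6 of them (rows, with the number tested of all members). Points are genes, red where higher, blue where lower and grey where not past the threshold, a right-pointing triangle is a lower bound for a gene with no count in total RNA, the black bar is the median of the list and the dotted line the median of all genes tested. Medians run from -1.40 for auxin receptors to 2.57 for arabinogalactan proteins, whose tested members were mostly admitted by their captured libraries alone.

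Genes of 4 families of small secreted and cell surface proteins are given next. In bulk tissue, fewer cells of a type and less RNA per cell cannot be told apart, and the ratio of captured to total RNA measures neither. Arabinogalactan proteins are heavily glycosylated proteins of the wall and plasma membrane. All 30 genes together had 899 and 718 CPM in capture against 321 and 328 CPM in total RNA. Of 21 that passed the filter, 14 passed through capture alone, and for that reason the number called (19 higher, 0 lower, the same without the library labelled total RNA replicate 1) is a description only. AGP15 had 236 and 149 CPM in capture against 40.3 and 25.9 CPM in total RNA (log2 fold change 2.57 with SE 0.26, adjusted p = 2.69e-06). AGP16, admitted by capture alone, had 28.2 and 29.7 CPM in capture against 1.23 and 0.93 CPM in total RNA (log2 fold change 4.76 with SE 0.35). AGP31, by contrast, had 214 and 162 CPM in capture against 177 and 229 CPM in total RNA and did not pass the test.

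The 94 defensin-like peptides and lipid transfer proteins, secreted cysteine-rich proteins of defence, pollination and the cuticle, summed to 2699 and 1908 CPM in capture against 1051 and 904 CPM in total RNA. Of 17 that passed the filter, 7 through capture alone, 12 were higher and 1 lower, against 13 and 1 without the library labelled total RNA replicate 1. The sum was carried by LTP6, a lipid transfer protein, with 1363 and 916 CPM in capture against 132 and 142 CPM in total RNA (log2 fold change 3.06 with SE 0.22, adjusted p = 1.579e-07). Among defensin-like peptides, LCR17 had 116 and 99.3 CPM in capture against 12.3 and 6.05 CPM in total RNA (log2 fold change 3.65 with SE 0.27). LCR5, admitted by capture alone, had 21.2 and 22.5 CPM in capture against 0.615 and 0.93 CPM in total RNA (log2 fold change 4.68 with SE 0.39). LTP4, a lipid transfer protein also induced by abscisic acid, was the one that fell, with 46.5 and 23.5 CPM in capture against 113 and 90.5 CPM in total RNA (log2 fold change -1.48 with SE 0.26).

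RALF and CLE peptides are secreted signals read by receptor kinases, and their 64 genes summed to 463 and 428 CPM in capture against 370 and 291 CPM in total RNA. Of 23 that passed the filter, 11 through capture alone, 10 were higher and 4 lower, with only 1 lower without NAD capture replicate 1 and also without the library labelled total RNA replicate 1. RALFL17 had 22.2 and 24.9 CPM in capture against 0.92 and 1.40 CPM in total RNA (log2 fold change 4.22 with SE 0.36), in a row that overlaps other annotated genes. RALFL26, with 5.50 and 3.84 CPM in capture, had no count in total RNA and was at least 15.9-fold higher, taking 3 counts over both total RNA libraries as the limit of detection. CLE25, expressed in vascular tissue, had 18.8 and 12.5 CPM in capture against 3.39 and 4.19 CPM in total RNA (log2 fold change 2.04 with SE 0.33). Like RALFL17 and RALFL26, it passed the filter through capture alone. The 6 gibberellin-regulated GASA peptides summed to 278 and 234 CPM in capture against 378 and 374 CPM in total RNA, and 3 were tested: GASA1 was higher (log2 fold change 1.59 with SE 0.32) and GASA4 lower (-1.46 with SE 0.20).

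Genes of the response to cold and abscisic acid were more often higher than lower. Of 27, 24 were tested, 5 of them admitted by capture alone, and 15 were higher and 3 lower (median 0.78). Without the library labelled total RNA replicate 1, 16 were higher and 3 lower, but only 9 were higher without NAD capture replicate 1 and 9 without total RNA replicate 2. Small membrane proteins were among the rises. COR413-PM1 had 112 and 94.9 CPM in capture against 17.5 and 14.7 CPM in total RNA (log2 fold change 2.71 with SE 0.21, adjusted p = 2.265e-07). RCI2B, a close relative of RCI2A, had 6.25 and 5.75 CPM in capture and no count in total RNA and was at least 19.7-fold higher. The dehydrin gene LTI30 had 26 and 6 counts in capture against 2 and 1 in total RNA, a ratio of 17.0 with an exact counting interval from 5.32 to 86.8. Like RCI2B, it passed the filter through capture alone. The transcription factor gene DREB1A had 29.2 and 26.4 CPM in capture against 11.4 and 11.8 CPM in total RNA (log2 fold change 1.27 with SE 0.23). P5CS1, the committing enzyme of proline synthesis, fell, with 88.5 and 109 CPM in capture against 333 and 285 CPM in total RNA (log2 fold change -1.65 with SE 0.20). ERD14, another dehydrin gene, was lower as well, with 190 and 239 CPM in capture against 570 and 395 CPM in total RNA (log2 fold change -1.17 with SE 0.21).

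Of 12 redox enzymes, FSD1 included, 6 were higher and 1 lower (5 and 1 without the library labelled total RNA replicate 1), with a median of 0.48. CSD1, a copper/zinc superoxide dismutase of the cytosol, had 369 and 373 CPM in capture against 224 and 175 CPM in total RNA (log2 fold change 0.90 with SE 0.19). FSD2, a plastid relative of FSD1, had 29.2 and 32.1 CPM in capture against 13.5 and 16.6 CPM in total RNA (log2 fold change 0.99 with SE 0.22). SAPX, a stromal ascorbate peroxidase, was the member that fell (-0.75 with SE 0.19).

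Genes of the circadian clock changed in both directions. The share called higher (26.3%) was near the 25.7% over all genes tested, while 47.4% were called lower, beside 25.7%. Of 19 genes, 5 were higher and 9 lower in capture (5 and 10 without the library labelled total RNA replicate 1), with a median of -0.44, but 0.25 with library totals alone, when 7 were higher and 4 lower. Both morning MYB factors fell: beside LHY, its partner CCA1 had 16.5 and 20.6 CPM in capture against 102 and 93.3 CPM in total RNA (log2 fold change -2.42 with SE 0.21, adjusted p = 7.05e-07). Of the 19, 3 passed the filter through capture alone, among them FKF1 and ELF4, which were both higher. FKF1, a blue light receptor that promotes flowering, had 28.5 and 30.2 CPM in capture against 3.08 and 4.03 CPM in total RNA (log2 fold change 2.98 with SE 0.28, adjusted p = 1.331e-06). LUX, a MYB factor of the evening complex, had 41.0 and 51.8 CPM in capture against 13.8 and 12.2 CPM in total RNA (log2 fold change 1.82 with SE 0.22), and its partner ELF4 had 10.5 and 12.5 CPM in capture against 1.54 and 2.17 CPM in total RNA (log2 fold change 2.52 with SE 0.38). PRR5 was higher too (1.74 with SE 0.22), as was TOC1 (0.80 with SE 0.22), whose call was lost with DESeq2 and without NAD capture replicate 1 or total RNA replicate 2. ELF3, the third protein of the evening complex, went the other way, with 27.0 and 26.4 CPM in capture against 80.6 and 119 CPM in total RNA (log2 fold change -1.91 with SE 0.22). LKP2 (-1.85) and ZTL (-1.08), the relatives of FKF1, were lower also, as were RVE4 (-0.89), PRR9 (-0.86), LWD1 (-0.70) and LWD2 (-0.61), none of these last 4 called with library totals alone, when LWD2 was at 0.08. The hour of harvest is not given in the labels.

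Genes that make and use small RNAs stood lower in capture. Dicer enzymes cut double-stranded RNA into small RNAs, and Argonaute proteins carry them to their targets. Of 28 genes, all tested, 0 were higher and 19 lower (67.9%), beside 25.7% each over all genes tested. Their median log2 fold change was -0.996, and they summed to 636 and 723 CPM in capture against 1231 and 1342 CPM in total RNA. Without the library labelled total RNA replicate 1, 18 were lower, and with library totals alone 5 were higher and 8 lower (median -0.30). DCL4, the Dicer of trans-acting and antiviral small RNAs, had 16.8 and 20.1 CPM in capture against 56.0 and 73.2 CPM in total RNA (log2 fold change -1.84 with SE 0.22). AGO1, the main Argonaute of microRNAs, had 96.5 and 113 CPM in capture against 270 and 257 CPM in total RNA (log2 fold change -1.34 with SE 0.19). NRPE1, the largest subunit of the RNA polymerase V that directs DNA methylation, had 12.8 and 14.9 CPM in capture against 38.5 and 49.0 CPM in total RNA (log2 fold change -1.70 with SE 0.23). In these 3 genes both captured libraries were below both total RNA libraries. AGO7 (-2.04), DRB4 (-1.78), DRB2 (-1.59), SE (-1.51), DCL3 (-1.32) and RDR6 (-1.32) were lower as well. Among the TAS loci, the precursors of trans-acting small RNAs, 3 of 7 were tested and TAS3 was higher. It passed the filter through capture alone, so that a rise was set by its admission. TAS3 had 4.75 and 4.79 CPM in capture against 1.23 and 0.31 CPM in total RNA (log2 fold change 2.86 with SE 0.60, adjusted p = 0.0012). The TAS3 call was lost without total RNA replicate 2.

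RNA decay genes were lower for 10 (43.5%) and higher for 2 (8.70%) of 23, beside 25.7% each over all genes tested, with a median of -0.42. With library totals alone the median was 0.27, with 8 higher and 3 lower, and without the library labelled total RNA replicate 1 the counts were 2 higher and 9 lower. RRP44A, a nuclease of the exosome, had 19.0 and 16.8 CPM in capture against 50.8 and 51.2 CPM in total RNA (log2 fold change -1.49 with SE 0.20). VCS, a scaffold of the decapping complex, had 42.5 and 41.7 CPM in capture against 117 and 101 CPM in total RNA (log2 fold change -1.37 with SE 0.19), and the decapping enzyme DCP2 had a log2 fold change of -1.001 (SE 0.22). The nuclear helicase MTR4 (-1.23), the exonuclease XRN3 (-1.09) and UPF1 of nonsense-mediated decay (-1.04) were lower too. LSM1B, of the ring that binds shortened tails, rose, with 17.0 and 16.8 CPM in capture against 3.69 and 5.58 CPM in total RNA (log2 fold change 1.79 with SE 0.30). The decapping activator DCP5 was the other gene that rose (0.75 with SE 0.19).

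Of 17 genes that make, salvage or carry NAD, 15 were tested. Called higher were 3 (20%) and lower 4 (26.7%), near the 25.7% each over all genes tested, and the median was -0.31 but 0.38 with library totals alone, when 7 were higher and 1 lower. NADK2, the plastid kinase that turns NAD into NADP, had 23.5 and 25.9 CPM in capture against 64.0 and 57.4 CPM in total RNA (log2 fold change -1.30 with SE 0.20). AO, the aspartate oxidase that opens the pathway, had 9.25 and 14.4 CPM in capture against 24.6 and 29.3 CPM in total RNA (log2 fold change -1.27 with SE 0.26). PXN, a peroxisomal NAD carrier, was higher, with 63.0 and 56.1 CPM in capture against 25.8 and 30.1 CPM in total RNA (log2 fold change 1.08 with SE 0.19). The carriers NDT2 (1.21) and NDT1 (-1.02) went opposite ways. Of 18 Nudix hydrolases, a family that cleaves NAD and other nucleoside diphosphates, 14 were tested, 5 were higher and 1 lower, and that 1 was no longer called without total RNA replicate 2. Without the library labelled total RNA replicate 1, 3 NAD genes were higher and 5 lower, and 5 Nudix genes were higher and 1 lower. With all 4 libraries the Nudix shares called were 35.7% higher and 7.14% lower, beside 25.7% each over all genes tested. NUDT12 had 27.8 and 25.9 CPM in capture against 5.85 and 5.43 CPM in total RNA (log2 fold change 2.26 with SE 0.26, adjusted p = 7.831e-06), and NUDT7, a regulator of defence, had 108 and 88.7 CPM in capture against 48.3 and 41.9 CPM in total RNA (log2 fold change 1.14 with SE 0.19).

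The receptors of auxin, F-box proteins that bind the hormone and mark its repressors for destruction, were lower as a family, with AFB5 an exception when scaled by library totals alone. All 6 were called lower, 5 of them also without the library labelled total RNA replicate 1, with a median of -1.40, and they summed to 194 and 192 CPM in capture against 477 and 484 CPM in total RNA. AFB2 had 18.25 and 15.8 CPM in capture against 66.8 and 90.4 CPM in total RNA (log2 fold change -2.20 with SE 0.22, adjusted p = 2.871e-06). TIR1, the first known receptor, had 35.0 and 36.4 CPM in capture against 80.3 and 61.4 CPM in total RNA (log2 fold change -0.98 with SE 0.20). AFB4 (-1.58), AFB1 (-1.48) and AFB3 (-1.31) lay between them. AFB5 had 35.2 and 31.6 CPM in capture against 52.9 and 43.7 CPM in total RNA (log2 fold change -0.51 with SE 0.20, adjusted p = 0.0422), lost its call under several alternatives and without the library labelled total RNA replicate 1 (-0.39, adjusted p = 0.173), and was at 0.18 with library totals alone. With library totals alone 4 of the 6 were lower, among which TIR1 was not.

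Among the auxin response factors, the transcription factors of the pathway, 12 of 20 were tested, with 0 higher, 7 lower (the same without the library labelled total RNA replicate 1) and a median of -0.82. With library totals alone 2 were higher and 1 lower. ARF2 had 236 and 321 CPM in capture against 591 and 655 CPM in total RNA (log2 fold change -1.17 with SE 0.20), and ARF10 (-1.15), ARF18 (-1.10), ARF16 (-1.08) and ARF8 (-0.88) were lower too, all 4 without a call under library totals. Of 14 tested Aux/IAA repressors, which the receptors mark, 3 were higher and 3 lower (21.4% each), near the 25.7% each over all genes tested, with a median of -0.05, or 0.64 with library totals alone. IAA2 had 28.0 and 31.2 CPM in capture against 74.2 and 78.9 CPM in total RNA (log2 fold change -1.38 with SE 0.19), and IAA19 had 19.2 and 22.1 CPM in capture against 9.23 and 8.37 CPM in total RNA (log2 fold change 1.23 with SE 0.26). Without NAD capture replicate 2, only 1 repressor gene was higher. Of 16 auxin-induced SAUR genes, 0 passed the filter.

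Floral organ identity genes were mostly higher. Of 21, 19 were tested, 4 of them admitted by capture alone, and 13 were higher and 2 lower, with a median of 1.10 and a summed level of 1339 and 1248 CPM in capture against 1057 and 1052 CPM in total RNA. The counts were the same without the library labelled total RNA replicate 1, but without NAD capture replicate 1 only 8 were higher. CRC, which shapes the carpel and the nectary, was among those admitted by capture alone. It had 19.2 and 13.9 CPM in capture against 1.54 and 3.10 CPM in total RNA (log2 fold change 2.73 with SE 0.36). The petal and stamen genes PI (1.10 with SE 0.18) and AP3 (1.00 with SE 0.21) were higher too, and STK, which specifies ovules, had 34.2 and 34.0 CPM in capture against 16.9 and 10.5 CPM in total RNA (log2 fold change 1.37 with SE 0.25). The 2 that fell were AP2, a repressor of AG, with 40.0 and 28.3 CPM in capture against 64.9 and 65.6 CPM in total RNA (log2 fold change -0.91 with SE 0.20), and SEP3 (-0.84 with SE 0.18). Neither was called with library totals alone.

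Anther and pollen genes gave a mixed picture. Of 20 tested genes of the tapetum and pollen wall, 9 were higher and 4 lower, with a median of 0.45. Single libraries weighed on this: 5 were higher without NAD capture replicate 1, 5 were higher and 5 lower without the library labelled total RNA replicate 1, and 2 were lower without total RNA replicate 2. Of 5 glycine-rich oleosins of the pollen coat, 4 rose. GRP14 had 178 and 186 CPM in capture against 44.3 and 32.4 CPM in total RNA (log2 fold change 2.26 with SE 0.21), and GRP19 had 438 and 290 CPM in capture against 122 and 59.8 CPM in total RNA (log2 fold change 2.02 with SE 0.29). GRP18 (1.54) and GRP16 (1.35) were higher as well. QRT3, a polygalacturonase that frees the microspores from the tetrad, fell, with 44.5 and 42.7 CPM in capture against 96.0 and 88.4 CPM in total RNA (log2 fold change -1.07 with SE 0.19). Late pollen and sperm genes summed to 429 and 350 CPM in capture against 309 and 184 CPM in total RNA over all 15. Of 12 that passed the filter, 6 through capture alone, 8 were higher and 0 lower, and 4 were higher without NAD capture replicate 1 and 4 without total RNA replicate 2. AGP6, a pollen arabinogalactan protein admitted by capture alone, had 16.5 and 14.9 CPM in capture against 1.85 and 0.775 CPM in total RNA (log2 fold change 3.74 with SE 0.41).

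Histone genes were higher in 10 of 18 tested and lower in 0 (the same without the library labelled total RNA replicate 1), with a median of 0.76 and a sum of 1887 and 1782 CPM in capture against 932 and 996 CPM in total RNA over all 19. HTA2, for an H2A histone, had 138 and 113 CPM in capture against 16.9 and 9.30 CPM in total RNA (log2 fold change 3.33 with SE 0.26, adjusted p = 2.391e-07). HTA6 (2.11), HTA13 (1.94) and HTB1 (1.67) were also higher, and as histone genes are close copies these values are uncertain. Among 23 cytosolic ribosomal proteins, 5 were higher and 6 lower, with a median of -0.12 that turned to 0.57 with library totals alone and to 0.03 with upper-quartile factors, and 2 were higher without total RNA replicate 2. The shares called higher (21.7%) and lower (26.1%) were near the 25.7% each over all genes tested. RPL5B (-1.66) and RPL18 (-1.53) fell, and RPS15 rose (0.85).

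Nuclear genes of mitochondrial respiration and import were higher in 7 of 14 tested and lower in 2 (median 0.66), with 4 higher and 1 lower without NAD capture replicate 1, and 1 lower without total RNA replicate 2. Small subunits of the import pore in the outer membrane went opposite ways. TOM6 had 23.8 and 31.6 CPM in capture against 5.23 and 4.03 CPM in total RNA (log2 fold change 2.59 with SE 0.29), and TOM5 had 50.7 and 52.3 CPM in capture against 160 and 309 CPM in total RNA (log2 fold change -2.19 with SE 0.27). Both rows overlap another annotated gene. Of 23 tested genes of salicylic acid and defence, 5 were higher and 4 lower (median 0.17), and 1 was higher without NAD capture replicate 1, and 3 without NAD capture replicate 2 and without total RNA replicate 2. With all 4 libraries, the shares of these defence genes called higher and lower were both below the 25.7% each over all genes tested. NPR4, a salicylic acid receptor that represses defence genes, had 8.999 and 6.71 CPM in capture against 36.6 and 43.6 CPM in total RNA (log2 fold change -2.31 with SE 0.25), and WRKY70, a transcription factor of defence, was higher (1.17 with SE 0.19). Heat shock genes were lower in 3 of 6 tested and higher in 0, led by HSP101, a disaggregase, with 2.75 and 10.1 CPM in capture against 18.16 and 25.9 CPM in total RNA (log2 fold change -2.02 with SE 0.40). Their median was -0.59, and 0.107 with library totals alone. Without the library labelled total RNA replicate 1, 6 import and respiration genes were higher and 2 lower, 6 defence genes higher and 5 lower, and 0 heat shock genes higher and 3 lower.

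By class of RNA, protein-coding genes held 74.5% and 76.2% of the assigned counts in capture, against 53.0% and 54.3% in total RNA. Mitochondrion-encoded genes held 9.55% and 11.01% in capture against 28.4% and 27.2% in total RNA, most of it from ATMG00020 and ATMG01390 in each library. Plastid-encoded genes held 5.76% and 4.16% against 8.998% and 9.45%. The 4 annotated nuclear ribosomal RNA genes held 8.21% and 6.98% in capture against 5.73% and 5.52% in total RNA. Transfer RNAs of nuclear genes held 0.212% and 0.0494% in capture against 0.00332% and 0.00219% in total RNA, and spliceosomal small nuclear RNAs (snRNAs) 0.1101% and 0.0860% against 0.451% and 0.361%. The groups did not overlap in any of these 6 classes. The share of snoRNAs was 0.418% and 0.338% in capture against 0.407% and 0.303% in total RNA, where the groups overlap. The counting intervals of these shares (95%, Wilson) cover counting error only and are narrower than the gap between replicates for the protein-coding, mitochondrion-encoded and plastid-encoded classes.

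**Figure D4:**
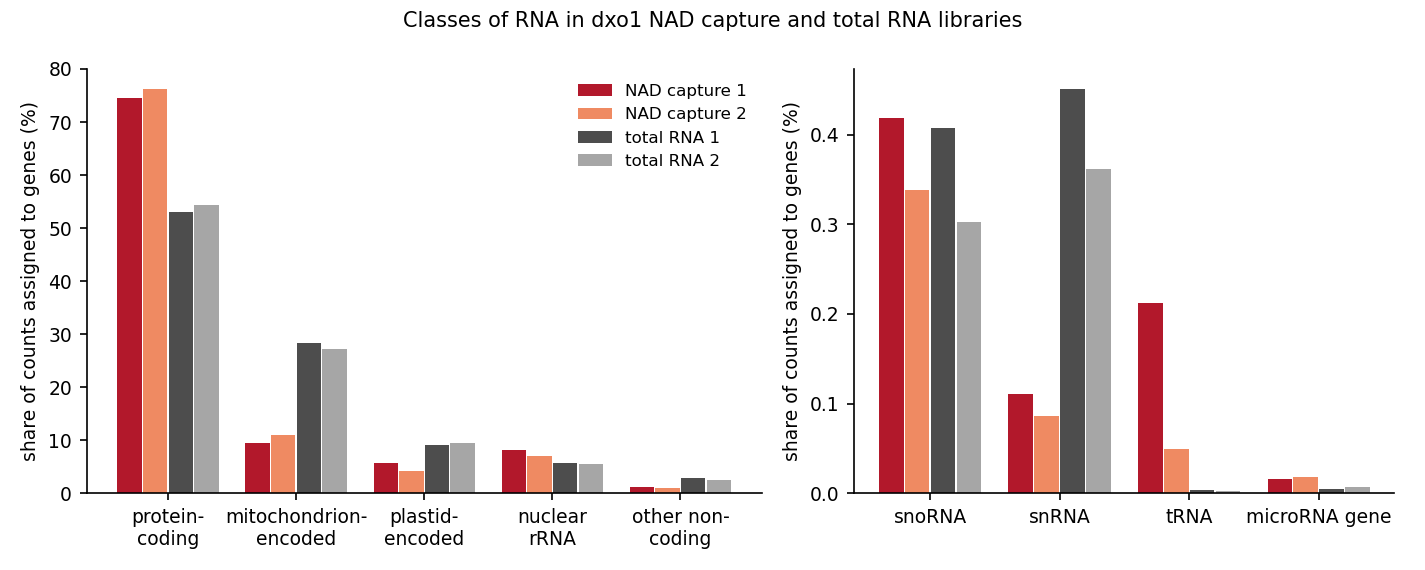
Share of the counts assigned to genes (vertical axes, in percent, from 0) by class of RNA, with large classes on the left and small classes on the right. The bars of each class are NAD capture 1 and 2 and then total RNA 1 and 2. Protein-coding genes reach 74.5% and 76.2% in capture against 53.0% and 54.3% in total RNA, and transfer RNAs 0.212% and 0.0494% against 0.00332% and 0.00219%.

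The mitochondrial share was held by few genes. ATMG00020 took 4.69% and 5.39% of the assigned counts in capture against 18.17% and 16.9% in total RNA (log2 fold change -2.49 with SE 0.18), and ATMG01390 took 3.70% and 4.64% against 9.47% and 9.49% (log2 fold change -1.87 with SE 0.18). Taken gene by gene, 17 of 41 tested mitochondrion-encoded genes were higher and 11 lower, with a median of 0.32, 11 of the 41 having passed through capture alone, and 10 were higher without NAD capture replicate 1. The 11 lower genes, ATMG00020 and ATMG01390 among them, summed to 67930 and 80230 CPM in capture against 353400 and 345700 CPM in total RNA. The 17 higher genes summed to 3625 and 2781 against 821 and 721 CPM, and the 13 not called to 4319 and 3753 against 3841 and 3962 CPM. ATMG01050 passed through capture alone. It had 16.2 and 14.4 CPM in capture against 0.615 and 0.31 CPM in total RNA, the latter from 2 counts each (log2 fold change 5.12 with SE 0.47). ATMG00070 had 332 and 383 CPM in capture against 2066 and 3036 CPM in total RNA (log2 fold change -2.84 with SE 0.22). Of the 17 higher genes, 8 passed through capture alone and 9 through both kinds, so genes were called on both sides also among those read in both kinds. All organelle genes were classed by identifier and are given by it, so ribosomal and transfer RNA genes of the organelles are not set apart from the others.

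Of 95 tested plastid-encoded genes, 21 were higher and 54 lower, with a median of -0.95, and 29 were higher and 42 lower with library totals alone. Leaving out the library labelled total RNA replicate 1 gave 22 higher and 54 lower. ATCG00490 had 8103 and 6994 CPM in capture against 37750 and 42230 CPM in total RNA (log2 fold change -2.40 with SE 0.19), and ATCG00380 had 73.2 and 62.3 CPM in capture against 571 and 1016 CPM in total RNA (log2 fold change -3.54 with SE 0.27). Plastid transfer RNA genes are counted within this class, and their part in the rises was not tested. Of the 21 that rose, 9 passed the filter through capture alone, among them both genes given next. ATCG00060 had 1039 and 212 CPM in capture against 2.46 and 2.17 CPM in total RNA (log2 fold change 8.09 with SE 0.67), and ATCG00370 had 662 and 132 CPM in capture against 1.54 and 1.86 CPM in total RNA (log2 fold change 7.82 with SE 0.69). Among the 21 that rose, the ratio of captured replicate 1 to captured replicate 2 had a median of 3.15, and it was over 2 in 13. Among plastid-encoded genes that fell, this ratio had a median of 1.19, and among protein-coding genes that rose, 1.03.

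Transfer RNAs are the adaptors of translation, and this class holds the nuclear genes alone. They showed the same imbalance between the captured libraries as the plastid-encoded genes that rose, a class that includes plastid transfer RNA genes. Only 22 of 623 genes passed the filter, 21 of them through capture alone. Their copies are often identical, and reads that match several places are not counted. All 623 summed to 1682 and 389 CPM in capture against 41.8 and 28.2 CPM in total RNA. Of the 22, 20 were higher, a number that was 11 without NAD capture replicate 1 and 34 to 37 without any other single library, as more genes passed the filter. The 24 glutamate transfer RNA genes had 3214 and 250 counts in capture against 19 and 26 in total RNA, the 10 for histidine 1398 and 124 against 2 and 2, and the 17 for glutamine 680 and 192 against 0 and 0. The glutamine gene AT1G01270 was at least 217-fold higher in capture, and the histidine gene AT5G64735, with 2 counts in total RNA, had a ratio of 1208 with an exact counting interval from 333.9 to 9985. The 41 glycine genes stood apart, with 163 and 25 counts in capture against 103 and 129 in total RNA. The 2 tested glycine genes were the only ones of the 22 that were not called, at log2 fold changes of 0.35 and -0.18. Among the 20 that rose, the ratio of captured replicate 1 to replicate 2 had a median of 2.49.

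The 71 annotated snoRNA genes summed to 3323 and 2662 CPM in capture against 5141 and 3902 CPM in total RNA, and their tested members changed in both directions. Of 52 that passed the filter, 39 did so through capture alone, and all 39 were called higher. Of the 13 that passed through both kinds, 5 were higher and 6 lower. AT1G03743, admitted by capture alone, had 236 and 247 CPM in capture against 2.15 and 1.86 CPM in total RNA (log2 fold change 6.92 with SE 0.27, adjusted p = 2.053e-09). U3B, a copy of the U3 RNA that directs early cuts of the ribosomal precursor, had 892 and 385 CPM in capture against 9.23 and 12.6 CPM in total RNA (log2 fold change 5.84 with SE 0.37). AT4G26365, with 32.2 and 41.2 CPM in capture, had no count in total RNA and was at least 114-fold higher. The 6 that fell held most of the total RNA level of the class, with sums of 319 and 240 CPM in capture against 4984 and 3707 CPM in total RNA. AT4G39364 alone had 29.0 and 21.6 CPM in capture against 2773 and 1960 CPM in total RNA (log2 fold change -6.52 with SE 0.27, adjusted p = 2.352e-09). SNOR105 had 143 and 118 CPM in capture against 980 and 954 CPM in total RNA (log2 fold change -2.89 with SE 0.20), and SNOR77 (-4.09), AT4G39363 (-3.05), SNOR111 (-2.26) and AT4G39361 (-1.996) followed.

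Of 13 snRNAs, which form the core of the spliceosome, 11 were tested. Called higher were 3, all of which passed the filter through capture alone, and called lower were 6, and without the library labelled total RNA replicate 1 the counts were 5 and 6. U2.7 had 172 and 200 CPM in capture against 2597 and 2381 CPM in total RNA (log2 fold change -3.75 with SE 0.20), and U2.2 had 11.5 and 8.15 CPM in capture against 156 and 146 CPM in total RNA (log2 fold change -3.89 with SE 0.23). U2.3 went the other way, with 116 and 129 CPM in capture against 0.92 and 0.155 CPM in total RNA (log2 fold change 8.09 with SE 0.37), and so did U2.4 (6.19 with SE 0.69). The copies are near-identical and only reads that match a single copy are counted, so these values are uncertain. U1.5 had 186 and 43.2 CPM in capture against 1352 and 890 CPM in total RNA (log2 fold change -3.26 with SE 0.44).

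**Figure D5:**
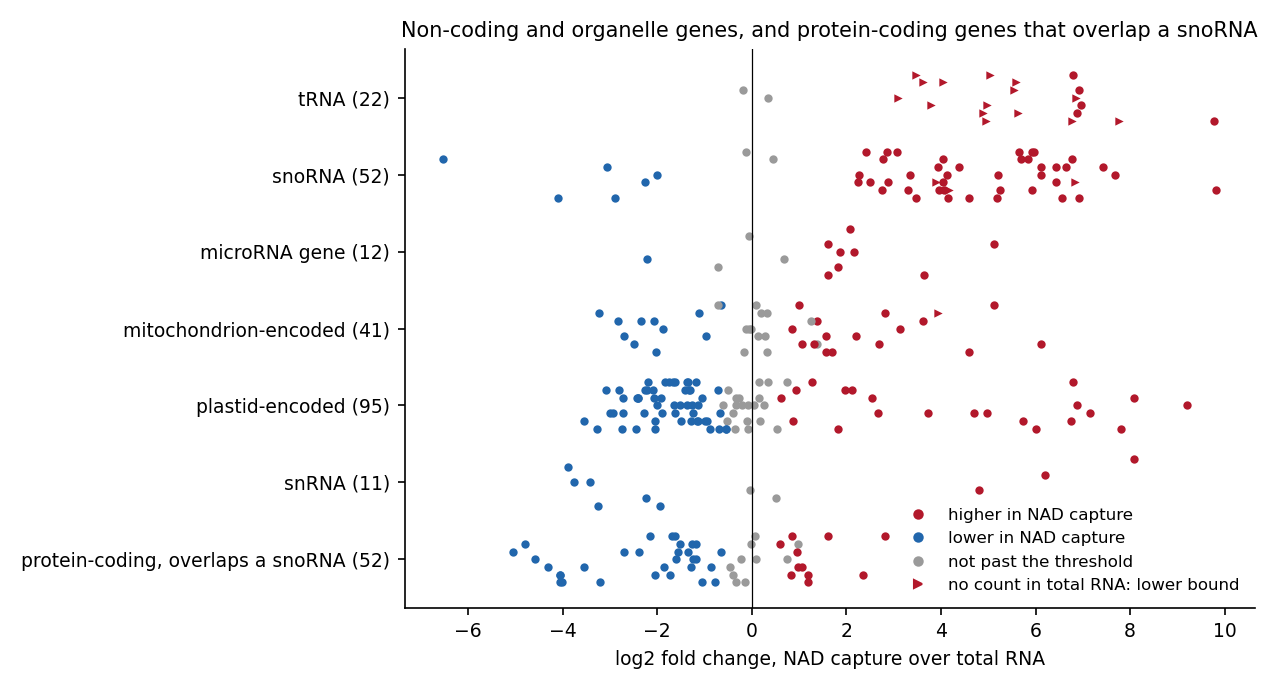
Log2 fold change of NAD capture over total RNA (horizontal axis) for each tested gene of 6 classes and for the 52 tested protein-coding genes that overlap an annotated snoRNA (rows, with the number tested). Points are red where higher, blue where lower and grey where not past the threshold, and a right-pointing triangle is a lower bound for a gene with no count in total RNA. Of the transfer RNAs 20 of 22 are higher, of the snoRNAs 44 of 52 (39 of them admitted by capture alone), and of the plastid-encoded genes 54 of 95 are lower.

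Few microRNA genes, whose transcripts are cut to release microRNAs, were deep enough to test. Of 178, 12 passed the filter, 7 through capture alone, and all 178 summed to 123 and 140 CPM in capture against 62.5 and 84.7 CPM in total RNA. Of the 12, 8 were higher and 1 lower, with 4 higher without NAD capture replicate 2 and 2 lower without NAD capture replicate 1, without NAD capture replicate 2 and without the library labelled total RNA replicate 1. MIR162a, whose microRNA targets DCL1, had 17.5 and 13.4 CPM in capture against 2.46 and 5.43 CPM in total RNA (log2 fold change 1.87 with SE 0.35). MIR398c, of the family that targets copper superoxide dismutases, had 10.8 and 15.8 CPM in capture against 2.46 and 5.27 CPM in total RNA (log2 fold change 1.61 with SE 0.37). Like MIR162a, it passed the filter through capture alone. MIR164b, whose microRNA targets NAC transcription factors, was the one that fell, with 1.75 and 2.398 CPM in capture against 8.00 and 10.2 CPM in total RNA (log2 fold change -2.21 with SE 0.42).

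Of 168 tested non-coding RNAs of other kinds, 68 through capture alone, 65 were higher and 30 lower, and 29 were higher without NAD capture replicate 1 and 42 without total RNA replicate 2. AT5G15022 had 155 and 121 CPM in capture against 8.62 and 9.61 CPM in total RNA (log2 fold change 3.91), and AT2G43375 had 75.7 and 42.2 CPM in capture against 766 and 677 CPM in total RNA (log2 fold change -3.59). Both of these rows overlap annotated snoRNAs. Of the 4 ribosomal RNA genes, AT2G01010 had 177 and 127 CPM in capture against 4146 and 7619 CPM in total RNA (log2 fold change -5.27 with SE 0.30, adjusted p = 1.993e-08), while AT3G41768 took 8.17% and 6.95% of the assigned counts in capture against 5.39% and 4.92% in total RNA. As 88.4% to 88.8% of the reads of these libraries matched several places and were not assigned, the levels of ribosomal RNA, transfer RNA and other repeated genes are those of their uniquely matching reads alone.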

How the data were processed

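The deposited tables hold the authors' raw counts of reads per gene, 28775 genes and 5 special entries of unassigned reads per library. The submitters' processing notes name cutadapt, STAR 2.4.2a, HTSeq and the TAIR10 build. Their settings, strand included, are not given in the sources used here, so reads of a gene and an overlapping one may not be told apart: 64 of the 228 genes named with a test overlap another annotated gene. The special entries, 91.9% and 93.0% of reads in capture and 91.2% and 90.9% in total RNA, were left out.

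Identifiers were matched to RefSeq's TAIR10.1 table for symbols, classes and overlaps (28009 of 28775). As it has another build, no coordinate or length is given and levels are not compared between genes. No sequence was printed, and the planned check on protein length and start base was not run.

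The 4 libraries formed 1 fit in R 4.3.3 with edgeR 4.0.16 (filterByExpr, minimum count 10, TMM factors, quasi-likelihood F test, two-sided), adjusted by Benjamini-Hochberg over the genes tested, at 0.05. On simulated data the step recovered 52.2% of planted 2-fold, 97% of 4-fold and 100% of 8-fold changes, with 7 false calls. Changes were planted in few genes and evenly in both directions, so the choice of scaling was not tested. With 2 libraries a group, exact permutation could not reach that threshold. CPM are counts per 1e6 of the TMM-scaled library size. Counting intervals cover counting error only. Alternatives were other scalings, DESeq2 1.42.0, other filters, nuclear genes alone, a replicate block and each library left out.

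The comparison, its 30 gene lists (33 entries unmatched, 25 wrong matches removed) and its tests were chosen with earlier results of these data known. Named by rule were DXO1, the 8 largest rises and 8 largest falls among protein-coding genes called, above the median level and without overlap of the groups, and up to 4 members of a list. Other genes named were chosen after their values were seen. Some genes stand in 2 lists.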

Additional observations from a re-analysis of the deposited data

How the results depend on the processing

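Capture was higher for 4490 and lower for 4494 genes. With library totals alone these counts were 9045 and 1642, with DESeq2 2930 and 3166, and with a library left out they ranged from 3009 to 4201 higher and from 3289 to 4505 lower. DESeq2's size factors (4503 and 4488), no filter on low counts (4576 and 4924), a minimum count of 50 (3402 and 3365) and nuclear genes alone (4417 and 4443) moved them by less than 1.5 times. A replicate block gave 4691 higher and 4780 lower, but the replicate differences of capture and of total RNA were nearly uncorrelated (0.043) and no label pairs the libraries, so they share only a number. Of 228 named genes tested, 190 kept their call and direction under all 12 alternatives in which they could be tested. DXO1 ranged from -5.11 to 0.64 on the log2 scale with a library left out, turning positive without total RNA replicate 1, and lost its call with DESeq2, and AFB5 turned to 0.18 and LWD2 to 0.08 with library totals alone, where 30 others lost their call. Most microRNA and transfer RNA genes had too few assigned reads to be tested.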
